A study of Mus musculus with 16 samples.

Results

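The p53 family and its MDM regulators were followed through mouse organoids, which are 3-dimensional cell cultures. The members are 5 genes, Trp53, Trp63, Trp73, Mdm2 and Mdm4, taken by symbol. They, and the gene lists and cell type markers used below, were chosen with earlier results of these data known. All 5 were found in both kinds of deposited table, the 5 tables of gene symbols and a table of normal organoids with 51912 entries that gives symbols beside Ensembl identifiers. They are 5 of the 22535 symbols that both kinds share.

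Polyadenylated RNA of 16 libraries of C57BL/6 mouse organoids was sequenced. The tumour organoids carry the genotype TMP, which is Trp53-/- with Myc and sgCdkn2a (a CRISPR guide to Cdkn2a), or TMPL, the same plus LMP1, which is a membrane protein through which Epstein-Barr virus drives cell signalling. Tumours grew in recipient mice after transplantation into the nasopharynx. By sample title there were 3 Ctr and 2 Lung-Ctr libraries of TMP, 2 LMP1 and 3 Lung-LMP1 libraries of TMPL, and 3 libraries each of untreated nasopharyngeal organoids (Normal_nasopha) and untreated lung organoids (Normal_lung). All 10 tumour libraries therefore share the Trp53, Myc and Cdkn2a changes, and no tumour group has intact Trp53. The series design names primary and metastasized tumours of both genotypes. The description field instead marks each TMP library as primary and each TMPL library as a metastasis. Group names are therefore those of the titles, and no site of growth is read from the Lung prefix. The labels give neither the part of Trp53 that was deleted, nor how Myc and LMP1 are driven, nor the age of the mice, nor whether replicates are separate animals or cultures. P-values therefore measure only the spread between these libraries, which may be technical.

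The transcription factor p53, made by Trp53, is activated by DNA damage and oncogenic signals and switches on genes of cell cycle arrest and cell death. Its relatives p63 (Trp63) and p73 (Trp73) bind like sequences, but p63 is best known as the factor that maintains basal cells of stratified and airway epithelium, and p73 for its part in multiciliated cells and neurons. Mdm2 is the ubiquitin ligase that marks p53 for breakdown and is itself a p53 target, and Mdm4 is its relative that binds p53 and blocks its activity. The Cdkn2a locus encodes p19Arf, which inhibits Mdm2.

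The 3 family genes are most alike in the part that encodes the DNA-binding domain. The most alike coding stretch of 60 bases is shown here because it bears on whether reads of one gene could be counted for another. Capitals mark the 41 bases that are the same in all 3 genes. The sequences are from GRCm38 (mm10) with GENCODE vM21 transcripts, each 5′ to 3′ on its own coding strand. Trp53 is at chr11:69589149-69589208 (plus strand, exon 7 of its transcript), Trp63 at chr16:25865255-25865314 (plus strand, exon 7) and Trp73 at chr4:154064680-154064739 (minus strand, exon 5).
Trp53: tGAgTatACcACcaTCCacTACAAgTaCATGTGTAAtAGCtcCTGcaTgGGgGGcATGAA
Trp63: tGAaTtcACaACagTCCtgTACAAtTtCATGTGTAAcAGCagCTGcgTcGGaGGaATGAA
Trp73: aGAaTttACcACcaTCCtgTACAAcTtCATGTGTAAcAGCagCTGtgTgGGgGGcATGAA
In this stretch Trp63 and Trp73 share 50 bases, Trp53 and Trp73 48, and Trp53 and Trp63 43. The longest run of identical bases between any transcripts of 2 family genes was 23 bases for Trp63 and Trp73, 14 for Trp53 and Trp63 and 13 for Trp53 and Trp73, and for Mdm2 and Mdm4 it was 20. No window of 50 bases was thus shared among the members. Windows of 50 bases shared with a gene outside the 5 made up 0% of Trp63, 1.32% of Mdm2, 3.95% of Trp53, 4.12% of Trp73 and 7.31% of Mdm4. For Mdm4 most of these lay in the pseudogene Mdm4-ps, and for Trp53 the most shared gene was Trp53-ps. For Trp73 all lay in Trp73os, an antisense gene with 280 bases of overlap. The sources used here do not say whether counting used strand, so reads of Trp73 and Trp73os in that overlap cannot be told apart.

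In GRCm38 Trp53 spans chr11:69580359-69591873 (plus strand), Trp63 chr16:25683763-25892102 (plus), Trp73 chr4:154056253-154140208 (minus), Mdm2 chr10:117688875-117710758 (minus) and Mdm4 chr1:132959484-133030561 (minus). Trp63 and Trp73 are each transcribed from promoters far apart, which give long forms with a transactivation domain and shorter ΔN forms that lack it. Of 8 annotated Trp63 transcripts, 3 start at base 25683765, 1 at 25683763 and 4 at 25801916. Values per gene, the only ones given here, add these forms together. The RefSeq promoter table (GRCm38.p6) held windows of 250 bases upstream for 4 of the 5 members, Trp53, Trp73, Mdm2 and Mdm4, in 6 windows. A p53 response element was searched on both strands as 2 adjoining 10-base repeats, with at most 2 mismatches in its 20 bases and none at the C and G of each core. It was found in 1 of the 6 windows, the internal promoter of Trp73 at chr4:154097174-154097423 (minus strand), and in 89 of all 32817 windows (0.271%). That window is printed because Trp73 is the member whose level varied most among the TMP libraries. Capitals mark the match, which begins 66 bases before the start of transcription (position -66).
Trp73 internal promoter: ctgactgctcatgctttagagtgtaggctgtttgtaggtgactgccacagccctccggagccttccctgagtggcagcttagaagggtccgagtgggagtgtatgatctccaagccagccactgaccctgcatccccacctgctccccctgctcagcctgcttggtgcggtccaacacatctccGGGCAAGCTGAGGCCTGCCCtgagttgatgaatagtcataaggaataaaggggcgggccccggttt
The match is a description of letters in the window and not a measured site of binding. Sequence outside these windows, introns included, was not searched, so a window without a match does not show that a gene lacks a site.

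Total counts per library were between 12535166 and 21737184. A floor of 3 counts was therefore at most 0.2393 CPM (the count scaled to a common library total). Replicates were compared first, and no pair of tumour libraries agreed within sampling noise: over the 45 pairs, chi-square per gene was 13.3 to 216, where sampling noise alone gives about 1. The 2 LMP1 libraries stood apart from the other tumour libraries in marker genes. Their summed level of 8 mesenchymal markers was 1434 and 1058 CPM with all 8 above 0, against 483 CPM in Ctr replicate 2 and 0.406 to 5.78 CPM in the other 7 tumour libraries. Their summed level of 6 epithelial markers, 938 and 1415 CPM, was below the 2220 to 5813 CPM of the other 8 tumour libraries. In the table that sets Ctr against normal nasopharynx, the 3 normal columns carry a normal lung heading, and they are called the normal comparator. Across 22535 shared symbols, their correlation (Pearson, log2 of CPM + 1) was 0.981 to 0.982 with the Normal_nasopha library of the same number and 0.884 to 0.891 with Normal_lung. Member counts in them were 80 to 100% of those in that Normal_nasopha library. The comparator and Normal_nasopha are therefore not independent, and only the comparator shares a table with the tumours.

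The deleted gene itself was read in every library. In the libraries labelled Trp53-/-, Trp53 had 58.1 to 108.7 CPM, or 791 to 1893 counts per library. The comparator had 63.3 to 156 CPM, so the ranges overlapped. Gene-level counts do not show which exons were read, and so they do not check the genotype. Cdkn2a, the gene targeted by the guide, had 122 to 381 CPM in the 10 tumour libraries and 4.83 to 7.82 CPM in the comparator. It was higher in each of the 4 tumour groups, by 5.19 to 5.83 on the log2 scale (adjusted p at most 0.000181). A guide can disrupt a protein without lowering its RNA, so this value does not check the edit.

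**Figure D1:**
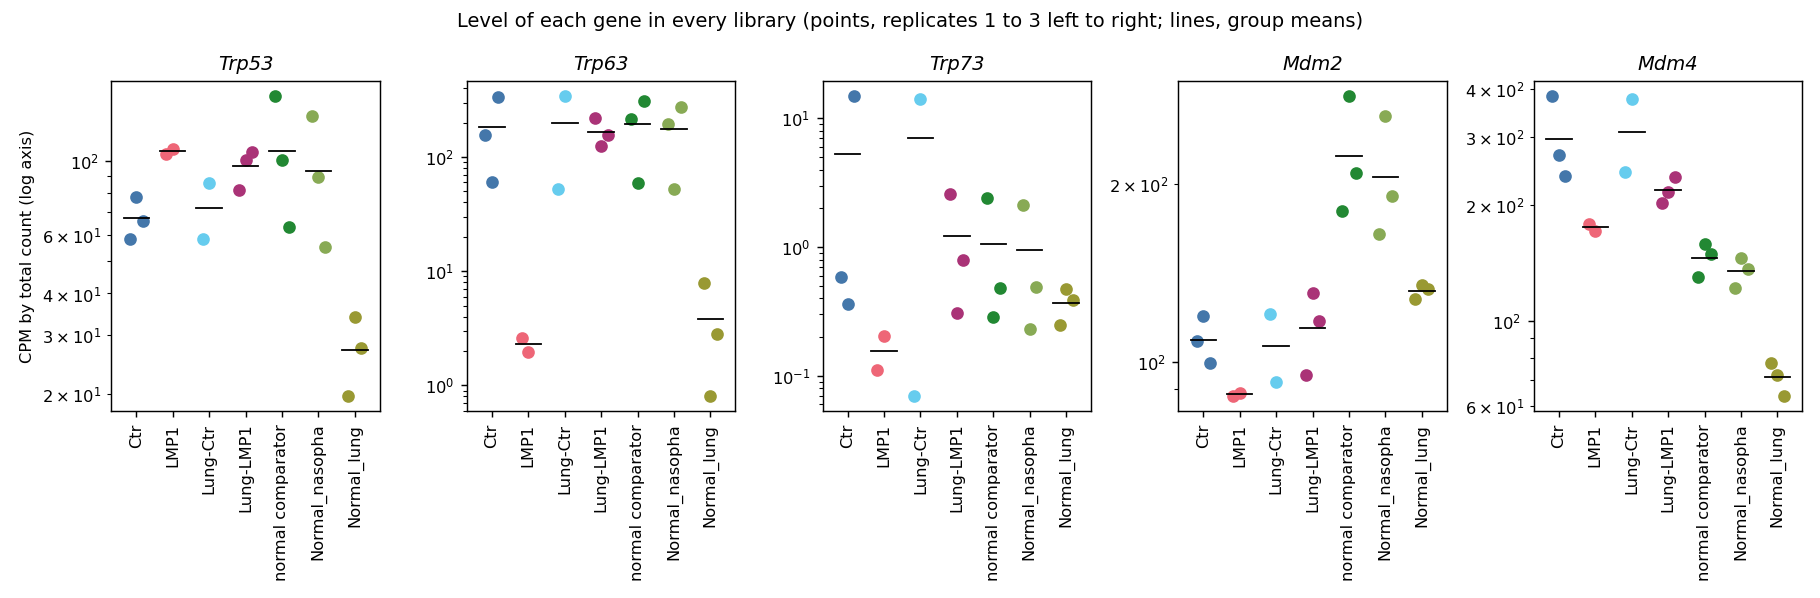
CPM by total count (log axis) of the 5 genes in every library, 1 point per library and a line at each group's mean, with 2 or 3 libraries per group. The LMP1 libraries lie at 2.60 and 1.96 CPM of Trp63, below all other tumour libraries, and Mdm2 is higher and Mdm4 lower in the normal comparator than in every tumour library.

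To compare genes with each other, CPM was divided by the length of each gene's longest transcript. Over the 10 tumour libraries the median was 33.3 CPM per kb for Mdm4, 33.0 for Mdm2, 26.3 for Trp63 and 25.6 for Trp53, and 0.094 for Trp73. The ranges of the first 4 overlapped, from 24.1 to 54.0 for Mdm4, 27.8 to 41.6 for Mdm2, 17.7 to 33.2 for Trp53 and 0.366 to 63.8 for Trp63. Trp73 (0.0138 to 2.95 CPM per kb) lay below Trp53, Mdm2 and Mdm4 in all tumour libraries. Within the tumours, the highest library had 1.496 times the lowest for Mdm2, 1.87 times for Trp53, 2.24 times for Mdm4, 174.5 times for Trp63 and 214 times for Trp73.

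Trp63, the basal-cell regulator, was low in both LMP1 libraries and high in the other 3 tumour groups. Ctr replicates 1 to 3 had 157, 59.99 and 336 CPM, Lung-Ctr had 52.2 and 342 CPM, and Lung-LMP1 had 219, 126 and 156 CPM. The LMP1 libraries had 2.60 CPM (47 counts, exact Poisson 95% interval 1.91 to 3.46 CPM) and 1.96 CPM (29 counts, 1.31 to 2.82 CPM), intervals that cover counting error only. These 2 lay below every other tumour library, and the other 3 groups overlapped each other. How many of all genes set the LMP1 libraries apart in this way was not counted. Trp63 was 82-fold lower in LMP1 than in Ctr (log2 fold change -6.36 ± 1.11 SE, adjusted p = 0.0102). It was the 1 member of 5 called in that comparison, in which 16.4% of all genes tested were called. It was 79.9-fold higher in Lung-LMP1 than in LMP1 (log2 fold change 6.32 ± 1.11, adjusted p = 0.0121), again the 1 member called, against a background of 10.1%. Both comparisons use the same LMP1 libraries, and in each the call was lost without either of them (adjusted p 0.117 and 0.105 against Ctr, 0.144 and 0.117 against Lung-LMP1), while over all alternatives the log2 fold change was -6.78 to -5.57 in the first and 6.06 to 6.54 in the second.

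The difference between these 2 genotype effects, LMP1 against Ctr and Lung-LMP1 against Lung-Ctr, was tested as an interaction. In Lung-LMP1 against Lung-Ctr, Trp63 had a log2 fold change of -0.18 ± 0.79 (adjusted p = 0.93). In TMPL against TMP it had -3.10 ± 1.68 (adjusted p = 0.244), and neither was called. The interaction for Trp63 was 6.18 ± 1.33 on the log2 scale with an adjusted p of 0.073, and so it was not called. With DESeq2 the adjusted p was 8.84e-07, and without Ctr replicate 2 or Lung-Ctr replicate 2 it was 0.0343 and 0.0333 with edgeR. None of the 5 members was called in the interaction, against 0.892% of all genes. In bulk RNA, fewer cells that express a gene and less of its RNA per cell cannot be told apart. Mesenchymal markers, epithelial markers and Trp63 moved together in the LMP1 libraries, and their part in the Trp63 result was not tested. The high mesenchymal level of Ctr replicate 2 went with 59.99 CPM of Trp63, the lowest of Ctr. Lung-Ctr replicate 1, with a low mesenchymal level, had still less Trp63, 52.2 CPM.

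**Figure D2:**
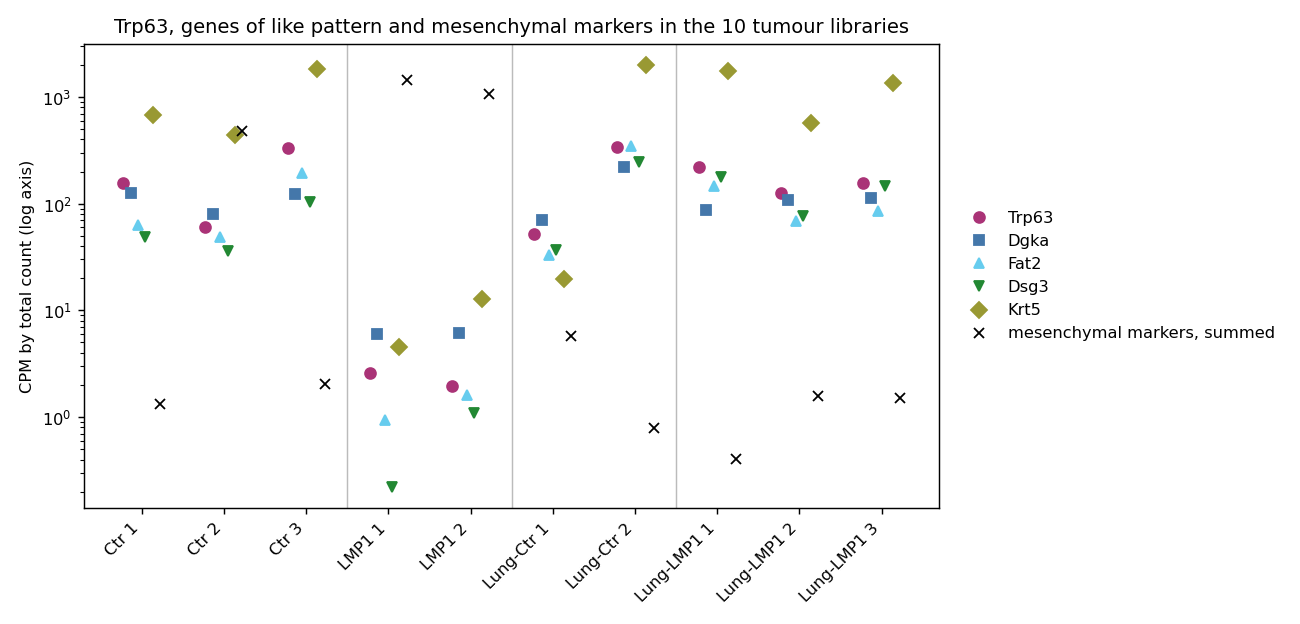
CPM (log axis) of Trp63, of 3 genes of like pattern (Dgka, Fat2 and Dsg3), of the basal keratin Krt5 and of 8 mesenchymal markers summed, in each of the 10 tumour libraries. In LMP1 replicates 1 and 2 the Trp63-like genes are at their lowest and the mesenchymal sum is at its highest, 1434 and 1058 CPM.

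Many known epithelial targets of p63 were also lower in LMP1. Of 30 tested genes of a list of p63 epithelial targets, 20 fell and 0 rose in LMP1 against Ctr, where 16.4% of all genes were called. The median log2 fold change of the list was -2.92 against -0.01 over all genes. Lamb3, a chain of the basement membrane protein laminin-332, fell from 124 ± 54.7 CPM (SD, n = 3) in Ctr to 4.97 ± 1.78 CPM (n = 2) in LMP1. Its log2 fold change was -4.66 ± 0.47 (adjusted p = 0.00245). The glutathione peroxidase Gpx2 fell by 5.88 on the log2 scale (adjusted p = 0.00326). The basal keratins Krt5 and Krt14 fell by 6.87 and 4.76 (adjusted p 0.0373 and 0.0301). Krt5 had 4.54 and 12.7 CPM in LMP1, 441 to 1823 CPM in Ctr and 571 to 1761 CPM in Lung-LMP1. In Lung-Ctr it had 19.8 and 1993 CPM, so 1 library of that group was near the LMP1 level for Krt5 while its Trp63 was at 52.2 CPM. The mesenchymal sum was 1434 and 1058 CPM in the LMP1 libraries, and its part in these calls was not tested.

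In Lung-LMP1 against LMP1, 20 of the 30 genes rose and 0 fell, where 10.1% of all genes were called. The median was 3.08 against 0.01 over all genes. Lamb3 (5.33) and the integrin Itga3 (2.42, both log2 fold changes) were among those of smallest adjusted p, at most 0.00211. The counts rest on both LMP1 libraries. Without replicate 1 they were 0 lower against Ctr and 4 higher in Lung-LMP1, and without replicate 2 they were 6 and 9. Under the interaction 7 of the 30 rose and 0 fell, against 0.892% of all genes called. Among the 7 were Lamb3 and the ubiquitin ligase Trim29 (adjusted p 0.0218 and 0.0308). The count of 7 ran from 0 to 19 over the alternatives. No gene of the list was called in Lung-LMP1 against Lung-Ctr or in Lung-Ctr against Ctr. Against the normal comparator, 22 of the 30 were lower and 0 higher in LMP1 (28.2% of all genes called). Ctr had 7 lower and 2 higher (35.1%), Lung-Ctr 4 and 2 (27.4%), and Lung-LMP1 4 and 2 (32%). Trp63 itself was not called against the comparator in Ctr, Lung-Ctr or Lung-LMP1, so some of the list was lower without a called change of Trp63.

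Over the 13 libraries of the symbol tables, the genes whose level (log2 of CPM + 1) followed Trp63 most closely included Galnt18 (Pearson r = 0.98), Fat2, Dgka (each 0.976) and Dsg3. Dsg3 is a desmosomal cadherin of squamous epithelium and Fat2 a large cadherin that is also on the list of p63 targets. These points share libraries and depth, and the correlations are given as descriptions. Dsg3 had 0.221 and 1.08 CPM in LMP1 and 36.3 to 245 CPM in the other tumour libraries. The likeness did not hold for each gene in Normal_lung, outside the 13 libraries, where Trp63 was at 0.807 to 7.90 CPM. Galnt18 was at 63.5 to 91 CPM there, Dgka at 40.7 to 50.2 CPM, Fat2 at 10.3 to 14.8 CPM and Dsg3 at 0.0486 to 2.38 CPM.

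Trp73, the family member tied to multiciliated cells, was low in most libraries and high in 2. It had 0.588, 0.360 and 14.9 CPM in Ctr (8, 5 and 214 counts), and 0.0696 and 14.1 CPM in Lung-Ctr (1 and 212 counts, the first with an exact Poisson interval up to 0.388 CPM). LMP1 had 0.111 and 0.203 CPM (2 and 3 counts, at or under the floor, with exact Poisson intervals up to 0.400 and 0.593 CPM), and Lung-LMP1 had 2.57, 0.306 and 0.798 CPM (38, 5 and 10 counts). Ctr replicate 3 and Lung-Ctr replicate 2 were thus far above the other replicates of their own groups, and the 4 groups overlapped except that LMP1 lay below Ctr and Lung-LMP1. Ctr replicate 3 and Lung-Ctr replicate 2 also had the 2 highest tumour levels of Trp63, 336 and 342 CPM. The log2 fold changes, -5.06 ± 2.43 for LMP1 against Ctr (adjusted p = 0.18) and -3.58 ± 1.56 for TMPL against TMP (adjusted p = 0.159), did not pass the test, and the first was -1.57 at its smallest when a library was left out.

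The gene most like Trp73 over the 13 libraries was Moxd1, a monooxygenase (r = 0.939), and next came Elmo2 (0.832), Nrip1 (0.814), Hlf (0.81) and Fam57a (0.809). Moxd1 had 21.8 CPM in Ctr replicate 3 and 65.3 CPM in Lung-Ctr replicate 2, and 0.387 to 11.6 CPM in the other 8 tumour libraries. Of 25 genes of a multiciliated programme found in the symbol tables, only 15 had enough counts to be tested among the tumours. The switch genes Gmnc, Mcidas and Foxj1 were at no more than 0.144, 0.288 and 1.60 CPM in any tumour library. In LMP1 against Ctr, 1 of the 15 fell, the ciliary gene Cfap43 (-3.16 ± 0.81, adjusted p = 0.0326), and 0 rose, against 16.4% of all genes called. The call was lost without either LMP1 library, without Ctr replicate 1, without Lung-LMP1 replicate 3 and with the replicate block.

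Trp53 RNA was higher and Mdm4 RNA lower in TMPL than in TMP. Trp53 was at 58.1, 77.9 and 65.7 CPM in Ctr and 58.3 and 86.0 CPM in Lung-Ctr, against 105 and 109 CPM in LMP1 and 81.8, 100.4 and 106.5 CPM in Lung-LMP1. Only Lung-LMP1 replicate 1 lay within the range of TMP, below Lung-Ctr replicate 2. With the Lung prefix as a term, Trp53 was 1.47-fold higher in TMPL (log2 fold change 0.56 ± 0.14, adjusted p = 0.033).

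Mdm4 was at 384, 269 and 238 CPM in Ctr and 243 and 377 CPM in Lung-Ctr, against 179 and 172 CPM in LMP1 and 203, 217 and 236 CPM in Lung-LMP1. All 5 TMPL libraries lay below all 5 TMP libraries, by little between Lung-LMP1 replicate 3 and Ctr replicate 3. The share of all genes that separate the genotypes in this way was not counted. Mdm4 was 1.54-fold lower in TMPL (-0.62 ± 0.17, adjusted p = 0.0439). These 2 of 5 members were called, against 12.4% of all genes. Both calls lay near the threshold. The Trp53 call was kept in 8 of 15 alternatives and that of Mdm4 in 5 of 15, and both were lost without either LMP1 library (adjusted p 0.103 and 0.127 for Trp53, 0.14 and 0.162 for Mdm4).

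Within either prefix the same 2 genes were not called. In LMP1 against Ctr, Trp53 had a log2 fold change of 0.65 ± 0.20 (adjusted p = 0.0591) and Mdm4 -0.78 ± 0.24 (adjusted p = 0.0551), and DESeq2 called both (0.0226 and 0.0116). In Lung-LMP1 against Lung-Ctr they were 0.47 ± 0.21 (adjusted p = 0.293) and -0.45 ± 0.23 (adjusted p = 0.347). Mdm2 was not called between genotypes, at 108 ± 12.2 CPM in TMP and 104 ± 19.2 CPM in TMPL (SD, n = 5 each), with a log2 fold change of -0.09 ± 0.14. The mesenchymal level of the LMP1 libraries goes with these values too, and its part was not tested.

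Of 35 tested regulators of p53 and the MDM proteins, 2 rose and 3 fell in TMPL against TMP, a share near the 12.4% of all genes called, with a median of 0.12 against -0.05 over all genes. Without either LMP1 library 0 rose and 0 fell, and 0 fell without Lung-LMP1 replicate 3. Rpl11, a ribosomal protein that can bind Mdm2, rose by 0.78 on the log2 scale (adjusted p = 0.0155). Ribosomal protein genes have near-identical copies, so the Rpl11 value is uncertain. The ubiquitin ligases Itch, which acts on p63 and p73, and Wwp1 fell by 0.47 and 0.62 (adjusted p 0.0225 and 0.0388), and Trim24, a ligase for p53, fell by 0.92 (adjusted p = 0.0389). Usp7, which removes ubiquitin from Mdm2 and p53, had a log2 fold change of 0.00 ± 0.19.

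Of 36 known p53 targets tested, 2 rose and 1 fell in TMPL against TMP, a share below the 12.4% of all genes called, with a median of -0.30 against -0.05 over all genes. The pro-apoptotic Bax rose 2.03-fold (adjusted p = 0.00809) and the mitotic gene Gtse1 rose 1.44-fold (0.019), and the polymerase Polk fell 1.82-fold (0.0496). Without either LMP1 library 1 rose and 0 fell, and 0 fell without the low-count filter, without the Lung prefix term, or without any 1 of Ctr replicates 1 to 3 and Lung-LMP1 replicates 1 and 3. In LMP1 against Ctr, 2 of the 36 rose, Bax (1.15) and Bbc3 (2.14), with adjusted p 0.0157 and 0.0179. In that comparison 6 fell, of smallest adjusted p Sfn (-3.28), Perp (-2.28) and Dcxr (-2.28, log2 fold changes), against 16.4% of all genes called. Promoters of cell death were called in both directions, Bax and Bbc3 higher and Pmaip1 lower (-2.64, adjusted p = 0.0346, named after its value was seen). Sfn and Perp, a desmosomal protein also tied to cell death, are on the list of p63 targets as well. These counts of 2 and 6 were 0 and 0 without either LMP1 library and 0 and 1 with the replicate block. Cdkn1a, the cell cycle inhibitor p21, had a log2 fold change of -1.28 ± 0.58 there (adjusted p = 0.159), and Ccng1 fell by 1.13 (adjusted p = 0.0338).

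**Figure D3:**
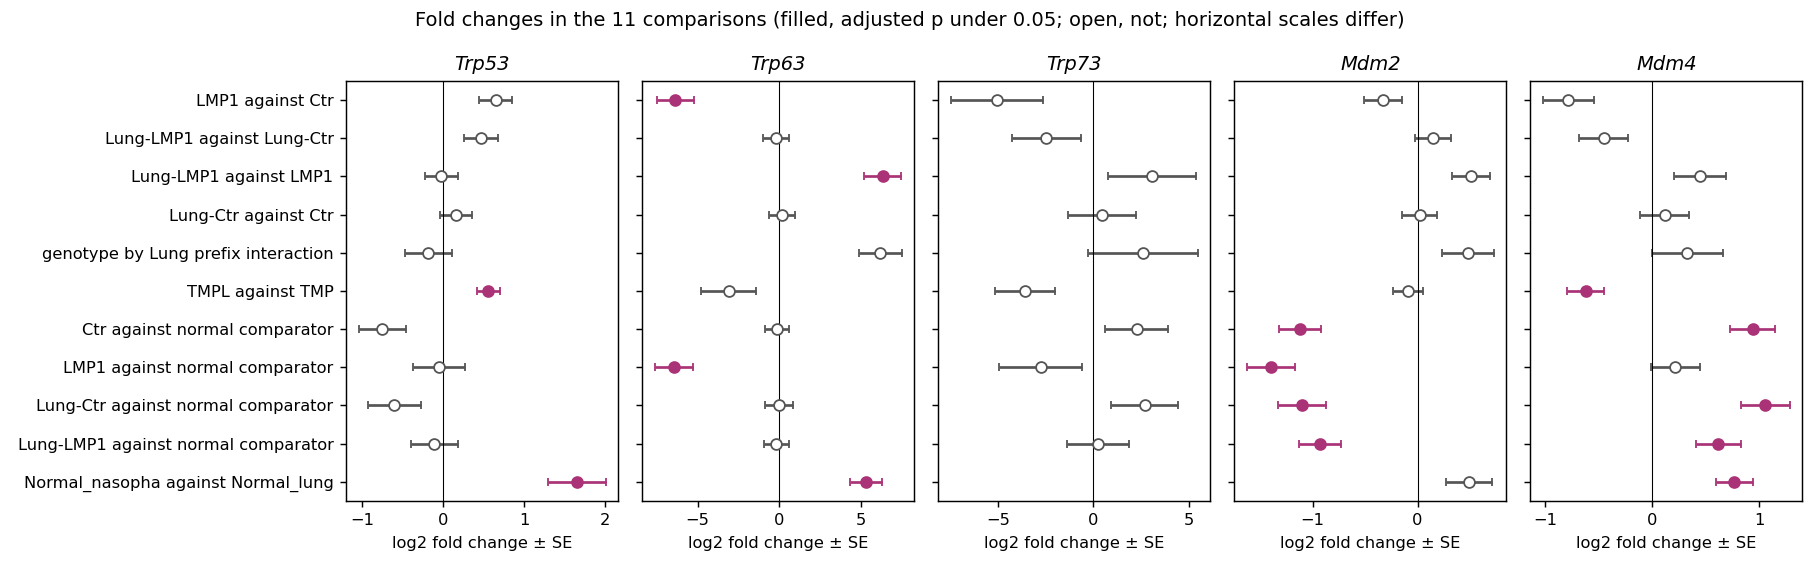
Log2 fold change ± SE of each gene in the 11 comparisons, from edgeR, with filled points at an adjusted p under 0.05 and horizontal scales that differ between genes. Mdm2 is called lower in all 4 tumour groups against the normal comparator, and Trp63 is called in both comparisons with LMP1 among the tumours.

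Against the normal comparator, Mdm2 was called lower in all 4 tumour groups and Mdm4 higher in 3 of them. Mdm2 was at 87.5 to 131 CPM in the 10 tumour libraries and at 180, 282 and 209 CPM in the comparator columns. Mdm4 was at 172 to 384 CPM in the tumours and 130, 158 and 149 CPM in the comparator. Every tumour library lay below the comparator for Mdm2 and above it for Mdm4. Of all genes, 24.5% had tumour and comparator libraries that did not overlap. For Trp53, Trp63 and Trp73 they overlapped.

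Mdm2 was 2.17-fold lower in Ctr (log2 fold change -1.12 ± 0.20, adjusted p = 0.00205) and 2.63-fold lower in LMP1 (-1.40 ± 0.23, 0.00255). It was 2.14-fold lower in Lung-Ctr (-1.10 ± 0.23, 0.00624) and 1.91-fold lower in Lung-LMP1 (-0.93 ± 0.20, 0.00664). Mdm4 was higher in Ctr by 1.92-fold (0.94 ± 0.21, 0.00597), in Lung-Ctr by 2.09-fold (1.06 ± 0.23, 0.00738) and in Lung-LMP1 by 1.54-fold (0.62 ± 0.21, 0.0396). In LMP1 its log2 fold change was 0.22 ± 0.23 (adjusted p = 0.494). Trp63 was called too in LMP1 (-6.45 ± 1.18, adjusted p = 0.00414), and this call was lost without either LMP1 library (0.0568 and 0.0564).

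These 4 comparisons share the comparator columns. Each called 2 of the 5 members, against 35.1% of all genes in Ctr, 28.2% in LMP1, 27.4% in Lung-Ctr and 32% in Lung-LMP1. The Mdm2 calls in Ctr, LMP1 and Lung-LMP1 and the Mdm4 call in Ctr held in all alternatives run. In Lung-Ctr both calls were lost without replicate 2 (0.0591 and 0.0782) and when only the groups compared were fitted (0.0948 and 0.0858). The Mdm4 call in Lung-LMP1 held in 2 of 11 alternatives. Immune markers summed to 65.2 to 299 CPM in the comparator and 7.86 to 41.4 CPM in the tumours, and their part in these results was not tested.

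As a ratio of counts within a library, Mdm2 to Mdm4 was 0.245 to 0.604 in the 10 tumour libraries. It was 1.39 to 1.79 in the comparator, 1.35 to 1.79 in Normal_nasopha and 1.64 to 2.08 in Normal_lung. The tumour and normal libraries did not overlap, and the share of gene pairs that separate in this way was not counted. In Normal_lung, which was counted in another table, Mdm2 alone (128 to 135 CPM) overlapped the tumours (87.5 to 131 CPM). Mdm4 was lower there, at 63.7 to 77.8 CPM. Normal_nasopha is not independent of the comparator. For the comparator this follows from the Mdm2 and Mdm4 values above and is not a further result. The ratio needs no scaling between libraries. It is a ratio of counts and not of molecules, since the genes differ in length.

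**Figure D4:**
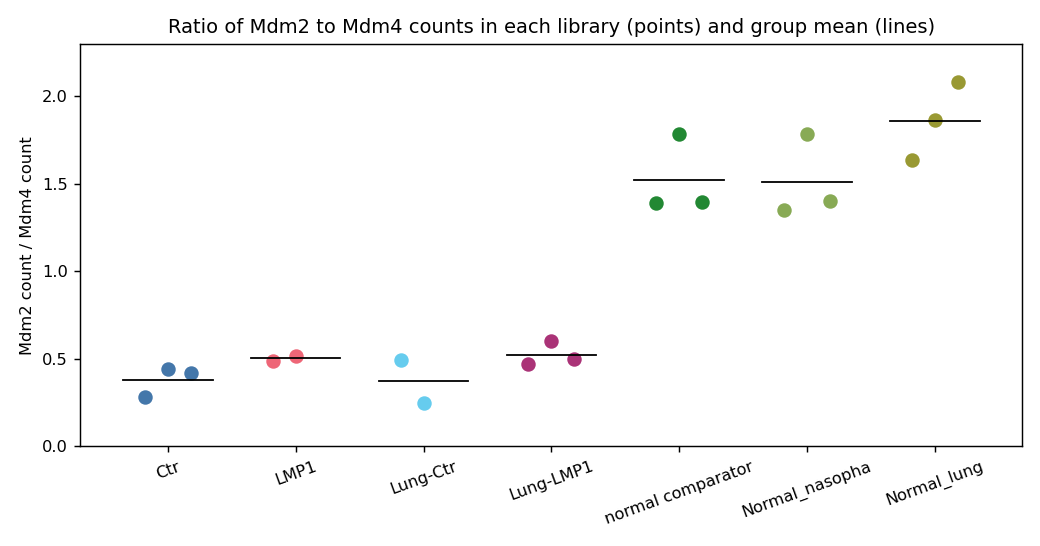
Mdm2 count divided by Mdm4 count in each library (points, 2 or 3 per group) with the group mean (lines). All 10 tumour libraries lie between 0.245 and 0.604 and all normal libraries and comparator columns between 1.35 and 2.08.

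Among the known targets of p53, calls against the comparator were mostly lower. Of the 36 p53 targets tested, 14 were called lower and 3 higher in Ctr than in the comparator, with a median of -0.82 against -0.07 over all genes. LMP1 had 19 lower and 0 higher, Lung-Ctr had 13 and 3, and Lung-LMP1 had 16 and 2, with medians of -1.0, -0.68 and -0.93. Of all genes, 35.1% were called in Ctr, 28.2% in LMP1, 27.4% in Lung-Ctr and 32% in Lung-LMP1, in either direction. Cdkn1a was at 8.52 to 65.4 CPM in the tumours and 334, 575 and 249 CPM in the comparator, which did not overlap. Its log2 fold change was -3.48 ± 0.54 for Ctr (adjusted p = 0.00108), -4.71 for LMP1, -4.37 for Lung-Ctr and -2.89 for Lung-LMP1, each of them called. Ccng1 was lower in Ctr by 1.63, the stress cytokine Gdf15 by 5.14 and Bax by 2.96 on the log2 scale, and Zmat3 differed by -0.07 ± 0.28 (adjusted p = 0.871). Higher in Ctr were Rrm2b, a ribonucleotide reductase subunit, by 1.07, the apoptosome gene Apaf1 by 0.85, and the mitotic gene Ckap2 by 1.77. The count of lower targets was 6 in LMP1 without either LMP1 library, and 6 and 8 in Lung-Ctr without replicate 1 and 2 and 3 when only the groups compared were fitted. In Lung-LMP1 it was 10 without replicate 3, and the 2 higher there were 0 without any 1 of its 3 libraries.

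Among the 35 regulators, 10 were called higher and 4 lower in Ctr than in the comparator, against 35.1% of all genes called. Besides Cdkn2a, the damage kinases Atr (1.84 ± 0.24) and Atm (1.46 ± 0.23) were higher. Rpl11 (-1.76) and the phosphatase Ppm1d (-0.85) were among those lower. LMP1 had 7 higher and 2 lower (28.2% of all genes), Lung-Ctr had 7 and 3 (27.4%), and Lung-LMP1 had 10 and 2 (32%). All 4 shares of the list were thus near those of all genes. The 10 higher in Ctr were 5 without Ctr replicate 2, 6 without Ctr replicate 3 or comparator replicate 3, and 4 when only the groups compared were fitted. In LMP1 there were 3 higher and 0 lower without either LMP1 library, and 11 and 4 higher without comparator replicates 1 and 3. In Lung-LMP1 there were 6 higher without replicate 3, and in Lung-Ctr 2 higher and 0 lower when only the groups compared were fitted. Rpl11 and Bax had means of 858 and 218 CPM in the comparator and 209 and 94.6 CPM in Normal_nasopha, so values of these 2 genes depend on the table.

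Between the normal organoids, nasopharynx had more Trp63, Trp53 and Mdm4 RNA than lung. Trp63 was at 197, 52.8 and 275 CPM in Normal_nasopha and 7.90, 0.807 and 2.82 CPM in Normal_lung, without overlap. It was 40.1-fold higher (log2 fold change 5.33 ± 0.98, adjusted p = 0.00756). Trp53 was at 136, 89.3 and 55.2 CPM in nasopharynx and 19.7, 33.9 and 27.4 CPM in lung and was 3.13-fold higher (1.65 ± 0.36, adjusted p = 0.0137). Mdm4 was at 122, 146 and 136 CPM against 77.8, 72.4 and 63.7 CPM and was 1.70-fold higher (0.77 ± 0.17, adjusted p = 0.0155). The groups did not overlap for any of these 3 genes. The share of all genes without overlap between the normal groups was not counted.

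Mdm2, at 165, 261 and 191 CPM against 128, 135 and 133 CPM, also did not overlap but was not called (0.49 ± 0.22, adjusted p = 0.128). Trp73 was at 2.13, 0.230 and 0.485 CPM in nasopharynx and 0.248, 0.475 and 0.389 CPM in lung, which overlapped, and had too few counts to be tested. Thus 3 of the 4 members tested were called, against 31.1% of all genes. The Trp63 call held in all 10 alternatives, that of Trp53 in 8 and that of Mdm4 in 7.

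Over all genes, 31.1% were called between the normal organoids, in either direction. Of the p63 targets 19 of 30 were called higher and 3 lower in nasopharynx, with a median of 2.90 against 0.13 over all genes. Krt5 (7.48), Krt14 (7.49) and the anchoring protein Lad1 (3.57) were among those higher. Of the p53 targets 13 of 36 were higher and 3 lower, with Pmaip1 (6.06), Perp (4.27) and Sfn (4.24, log2 fold changes) of smallest adjusted p. Of 18 multiciliated genes tested 2 were higher and 6 lower (0 higher without any 1 of the Normal_lung libraries or with the replicate block), and Foxj1 was lower by 4.61 (adjusted p = 0.00987). Alveolar type 2 markers summed to 59670 CPM or more in Normal_lung and to 239 CPM or less in Normal_nasopha, and basal markers to at most 296 and at least 2640 CPM.

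**Figure D5:**
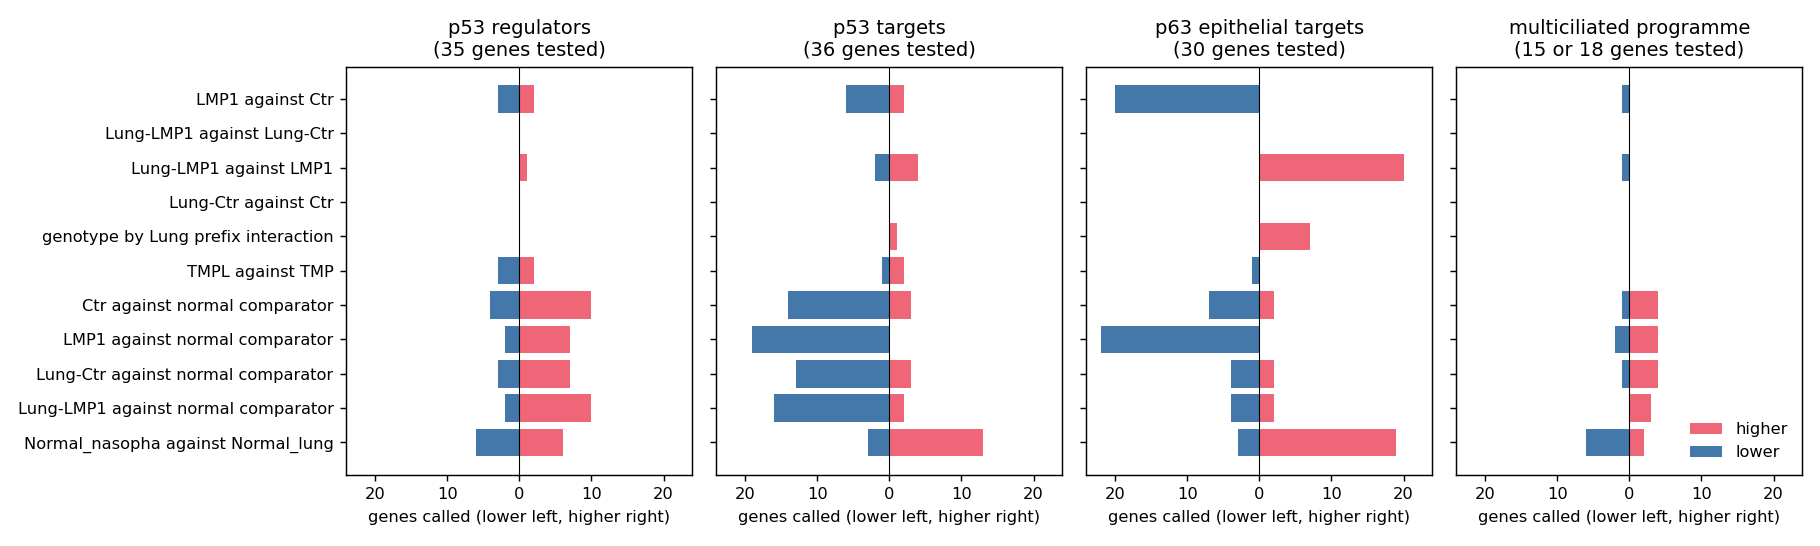
Number of genes of each list called lower (bars to the left) and higher (to the right) in the 11 comparisons, from edgeR at an adjusted p under 0.05. The p63 epithelial targets show 20 lower in LMP1 against Ctr and 20 higher in Lung-LMP1 against LMP1, and the p53 targets show mostly lower calls in the 4 comparisons with the normal comparator.

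No member was called in Lung-Ctr against Ctr or in Lung-LMP1 against Lung-Ctr, and edgeR called 0% of all genes in both. At an unadjusted p under 0.05 there were 717 and 2295 of 13460 genes. With no difference at all a fraction of about 0.05 would pass, so the first is near that fraction and the second above it. DESeq2 called 40 and 881, none of them a member. In Lung-Ctr against Ctr the log2 fold changes were 0.16 ± 0.20 for Trp53, 0.14 ± 0.79 for Trp63, 0.46 ± 1.78 for Trp73, 0.02 ± 0.17 for Mdm2 and 0.12 ± 0.23 for Mdm4. The SE was largest for Trp63 and Trp73, whose replicates within a group were furthest apart.

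The genes whose levels followed the other members over the 13 libraries were a different set for each. For Mdm2 they were Fgf21 (r = 0.968), Mir22hg, Nck2, Ndel1 and Fam214b, and for Mdm4 they were Nipbl, Zfp960 (both 0.979), Rsbn1l, Ralgapa1 and Appl1. The genes like Mdm2, and Mdm2 itself, were lower in every tumour library than in every comparator column. That shared offset enters their correlations, and likeness within the tumours alone was not tested. Fgf21, a stress-induced hormone gene, ran from 0.221 to 53.8 CPM, and was lower in Ctr than in the comparator by 4.28 on the log2 scale (adjusted p = 0.00427). Nipbl, the cohesin loader, was higher in Ctr by 0.86 (adjusted p = 0.00828). For Trp53 the likeness was weaker, with Hnrnpul2 (0.873), Clcf1, Ppp1ca, Neurl4 and Ranbp3 (0.806).

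Where the authors' deposited table holds a comparison in which a member was called here, it gives the same direction. The authors' deposited table lists Trp63 at a log2 fold change of -6.38 (adjusted p = 1.83e-19) in LMP1 against Ctr and 6.32 (4.3e-74) in Lung-LMP1 against LMP1. The authors' deposited table also lists Trp53 (0.644, adjusted p = 0.0106), Mdm4 (-0.784, 0.0153) and Trp73 (-5.14, 0.00766) below 0.05 in LMP1 against Ctr, where edgeR called none of these 3. In Lung-LMP1 against LMP1, the authors' deposited table lists Mdm2 (0.504, adjusted p = 0.0482) and Mdm4 (0.445, 0.00865) below 0.05, where edgeR called neither (adjusted p 0.104 and 0.259). For Ctr against the normal columns, the authors' deposited table lists Mdm2 at -1.09 (0.00351) and Mdm4 at 0.972 (0.0107). Between the normal organoids, the authors' deposited table lists Trp63 at 5.3 (2.84e-10), Trp53 at 1.6 (0.000628) and Mdm4 at 0.722 (0.00678).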

How the data were processed

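The 16 organoid libraries were measured by RNA-seq. Per the submitters' processing notes, the authors' work used STAR, DESeq, DESeq2 and the genome build mm10. Which tool counted the reads, with which annotation, and all versions: none of these is given in the sources used here. Raw counts were deposited for each gene, per the file headers, and the tests use nothing else. The authors' log2 fold changes and p-values, per the file headers also deposited, are quoted as the authors' deposited table. Of the count columns, 13 occur a second time and were identical there, and 32 further columns of per-library values were not used.

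Tests were run in edgeR 4.0.16 (R 4.3.3). Low counts were filtered with filterByExpr, libraries were scaled by TMM, dispersions were robust, and the quasi-likelihood F-test was adjusted by Benjamini-Hochberg over all genes tested. A gene is called at an adjusted p under 0.05. The SE is the log2 fold change divided by the square root of F. One fit held the 10 tumour libraries with a mean for each group (6 residual degrees of freedom), and another had terms for genotype and Lung prefix (7). The normal comparator was tested in a fit of 13 libraries (8), and nasopharynx against lung in the 6 normal libraries (4). All 5 members passed the filter in the symbol tables, and 4 in the normal table. CPM are by total count. On simulated data with 200 genes changed 4-fold, LMP1 against Ctr recovered 64% and Normal_nasopha against Normal_lung 57%.

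The members, the gene lists and the cell type markers were chosen with earlier results of these data known. The text names the 5 members, for each the 5 genes of highest correlation over 13 libraries (mean CPM of at least 5, no predicted symbol), up to 3 called genes of smallest adjusted p per list and direction, and Cdkn1a, Ccng1, Zmat3, Cdkn2a, Usp7, Krt5, Krt14, Foxj1, Gmnc and Mcidas. Some genes that this rule selects are not reported here. Alternatives were DESeq2 1.42.0, RLE scaling, testing without the low-count filter, leaving out each library in turn, blocking on replicate number, fitting only the groups compared, and dropping the Lung prefix term. List counts under these were added after seeing the data.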

Additional observations from a re-analysis of the deposited data

Results flagged for a closer look

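Among the 5 TMPL libraries, Trp73 was at 2.57 CPM in Lung-LMP1 replicate 1 and at 0.798 CPM or less in the other 4, a gap that passes Dixon's 95% critical value of 0.71 for 5 samples. The gap rests on 38 counts. Chance alone flags about 1 in 20 such groups, and each of the 5 genes was examined in both genotypes.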

How the results depend on the processing

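Depth limits Trp73 (1 to 10 counts in 7 of the 10 tumour libraries), and the number of libraries limits the rest. Mdm2 in Ctr, LMP1 and Lung-LMP1 against the normal comparator, Mdm4 in Ctr against it, and Trp63 between the normal organoids kept direction and call in every alternative run. The cause of the changes below was not tested, except that leaving out libraries or fitting only 2 groups leaves fewer samples. Where an arm kept 1 library, that library was assumed to vary like the other groups.

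With DESeq2 the members called were 3 in LMP1 against Ctr (Trp53, Trp63, Mdm4), 1 in the interaction (Trp63), 3 in TMPL against TMP (with Trp63, -3.28, adjusted p = 0.013) and 3 in Ctr against the comparator (with Trp53, -0.75, adjusted p = 0.043), and all genes called were 3576 in LMP1 against Ctr, 881 in Lung-LMP1 against Lung-Ctr, 2537 in Lung-LMP1 against LMP1, 40 in Lung-Ctr against Ctr, 926 in the interaction and 3135 in TMPL against TMP. With only the groups compared, 2 members were called in Lung-LMP1 against LMP1 and, against the comparator, 0 in Lung-Ctr and 1 in Lung-LMP1, with Trp63 in Lung-Ctr at 0.01. All genes called were then 2682 in Lung-LMP1 against LMP1 and, against the comparator, 2917 in Ctr, 2288 in LMP1, 168 in Lung-Ctr and 2937 in Lung-LMP1. Without the low-count filter, and without the Lung prefix term, 1 member was called in TMPL against TMP, with 1107 genes in the latter. Without the filter 1 was called in Lung-LMP1 against the comparator.

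The replicate numbers were not taken to pair libraries, since deviations of same-numbered tumour libraries correlated at -0.348 to 0.174 (13 pairs), and of normal ones at -0.196 to -0.105 (3 pairs). With the replicate block, all genes called were 483 in LMP1 against Ctr, 360 in Lung-LMP1 against LMP1, 2 in the interaction, 785 in TMPL against TMP and 2517 in LMP1 against the comparator. The p63 targets called were then 10, 13 and 0 in the first 3 of these. Members called were 1 in TMPL against TMP and 1 in Lung-LMP1 against the comparator. Trp73 in the interaction was -0.20, and Trp63 was 0.72 in Lung-Ctr and 0.08 in Lung-LMP1 against the comparator.

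With each library left out in turn, members and all genes called were 0 to 3 and 25 to 2621 in LMP1 against Ctr, 0 to 1 and 33 to 1756 in Lung-LMP1 against LMP1, 0 to 1 and 4 to 331 in the interaction, and 0 to 1 and 263 to 2027 in TMPL against TMP. All genes called were 0 to 33 in Lung-LMP1 against Lung-Ctr and 0 to 31 in Lung-Ctr against Ctr. Against the comparator they were 1 to 2 and 736 to 4836 in LMP1, 0 to 3 and 2018 to 4565 in Lung-Ctr, and 1 and 2354 to 5346 in Lung-LMP1. Between the normal organoids they were 1 to 4 and 2657 to 5421.

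Only log2 fold changes that were not called changed sign with a library left out. In Lung-Ctr against Ctr they ran from -0.15 to 0.42 for Trp53, -1.77 to 0.94 for Trp63, -6.05 to 3.95 for Trp73, -0.17 to 0.20 for Mdm2 and -0.23 to 0.42 for Mdm4. In Lung-LMP1 against Lung-Ctr they ran from -1.0 to 1.74 for Trp63, -3.65 to 4.05 for Trp73 and -0.02 to 0.34 for Mdm2, and in Lung-LMP1 against LMP1 from -0.10 to 0.07 for Trp53. In the interaction they ran from -0.46 to 0.13 for Trp53 and -0.88 to 9.12 for Trp73. Against the comparator, Trp53 ran from -0.35 to 0.25 in LMP1 and -0.38 to 0.25 in Lung-LMP1. Trp63 ran from -0.95 to 0.38 in Ctr, -1.91 to 0.79 in Lung-Ctr and -0.63 to 0.32 in Lung-LMP1, and Trp73 from -1.25 to 3.70, -3.80 to 4.15 and -0.94 to 1.69.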
